A study of Triticum aestivum with 12 samples.

Results

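The pollen coat genes described here are wheat genes that the study matched, as orthologs, to 4 Arabidopsis or rice gene names: OsOSC12, CER1, CER3 and KCS7/KCS21. The study's table of tapetal genes lists 107 distinct IDs under these names besides 4 that were left out by rule, and the 107 are the members of this account. The 4 left out were 2 OsOSC12 and 2 CER1 genes, and 3 of them rose after heat stress in each cultivar, so counts that include them are given once beside those over the 107. All 107 members were found among the 266760 genes of the count files. They comprise 1 OsOSC12 gene, 12 CER1 genes, 9 CER3 genes and 85 KCS7/KCS21 genes. The table names no wheat ortholog for the coat proteins GRP17, EXL4 and EXL6, so every member is a gene of lipid or triterpene synthesis and none encodes a coat protein.

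The pollen coat is the sticky, lipid-rich layer that the tapetum, the innermost layer of the anther wall, lays on the outside of pollen grains late in anther development. Much of it is made from very-long-chain fatty acids. These are built up by the fatty acid elongase of the endoplasmic reticulum, whose first and rate-limiting step is carried out by 3-ketoacyl-CoA synthases (KCS), and in Arabidopsis CER3 acts with CER1 to turn the long acyl chains into alkanes. The same enzymes make the wax of the anther epidermis and of leaves, so these genes are not particular to the tapetum. OsOSC12 is an oxidosqualene cyclase that in rice makes a triterpene of the pollen coat, and it lies outside the wax pathway.

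The samples were 12 libraries of total RNA from wheat anthers, 3 in each of 4 groups: control and heat-stressed anthers of the heat-sensitive winter wheat ‘Mv 17-09’ and of the heat-tolerant ‘Ellvis’. Heat-stressed plants were held at 35 °C for 24 h from the day before meiosis began, and anthers were taken at the end of the treatment, together with anthers of unheated plants at the same stage. Whole anthers pooled from several plants were used, so fewer cells of a type and less RNA per cell cannot be told apart. Anthers were therefore sampled around meiosis, before a pollen grain exists.

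Total counts per library ran from 9336312 to 20846135, except for ‘Ellvis’ control replicate 1, which held 1831675. In that library a single count was worth 0.565 CPM (counts scaled to a common library size after TMM correction), and it stood apart in content as well. The summed level of 34 sporopollenin genes, which mark the tapetum, was 36198 CPM there against 17361 and 18632 CPM in the other ‘Ellvis’ controls, and that of 12 meiocyte genes (among them ASY1 and DMC1) was 67.2 against 140.0 and 141.8 CPM. The counts of called members that rest on ‘Ellvis’ controls are therefore given with and without this library, and so are values of some single genes. The 3 heat-stressed ‘Mv 17-09’ libraries, with at most 9670186 counts, were all shallower than the ‘Mv 17-09’ controls, with at least 15867579, so depth and heat stress cannot be told apart in that cultivar.

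Few of the members were counted well at this stage. Of the 107, 9 had no count in any library, 46 had 1 to 9 counts over all 12 libraries, and 52 had 10 or more. A count in every library was found for 26 members. The members' counts were concentrated in a few genes: the single highest took 25.0% of the members' mean summed CPM, the highest 5 took 61.6% and the highest 10 took 83.7%. CPM are not divided by gene length, so these shares are of counts and not of transcripts.

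Of the 107 members, 31 passed the filter on low counts and were tested. All 9 CER3 genes and 7 of the 12 CER1 genes of the wax alkane branch were among them. The elongase genes were mostly below the filter, with 14 of 85 KCS genes tested. By the RefSeq descriptions in the study's table, 4 of the 43 members described as KCS5-like, 10 of the 39 described as KCS6-like and none of the 3 described as KCS4-like were tested. None of the 4 CER1 genes described as GL1-7 passed, and 3 of the 4 GL1-5 genes did.

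Many members stood near other members on their chromosome, and few of these were tested. A neighbouring member, defined as another member on the same chromosome whose ID number differs by at most 3000, was found for 48 members in 15 groups of up to 6. Of these 48, 6 were tested, against 25 of the 59 without a neighbour. Homoeologous chromosome group 7 held 44 of the 107 members, 8 of them tested, and group 6 held 18, of which 10 were tested. The count files cannot show how reads were shared between near-identical neighbours or homoeologous copies, so single copies of such groups are uncertain.

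**Figure D1:**
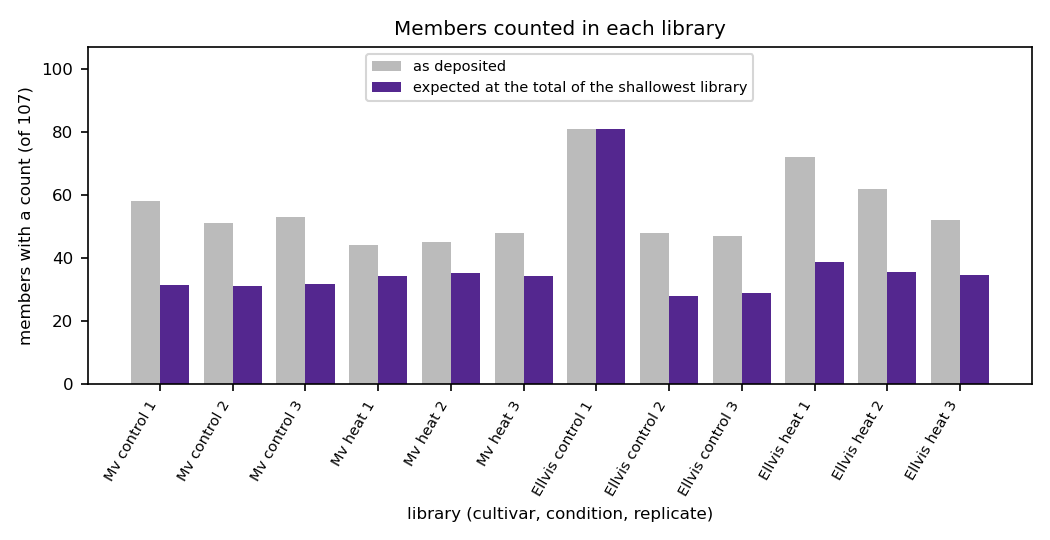
Bars give the number of the 107 members with at least 1 count in each of the 12 libraries, as deposited (grey) and as calculated if each library were reduced to the 1831675 counts of the shallowest (purple). ‘Ellvis’ control replicate 1 had a count in 81 members, and at that common total the other 11 libraries were expected to show between 28.0 and 38.9.

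‘Ellvis’ control replicate 1 counted more members than any deeper library. It held a count for 81 members, against 44 to 72 in the other 11 libraries. At a common total of 1831675 counts, the other ‘Ellvis’ controls were expected to show 28.0 and 29.0 members, the heat-stressed ‘Ellvis’ libraries 34.7 to 38.9, and the ‘Mv 17-09’ libraries 31.2 to 35.2. The 76 members below the filter summed to 73.4 CPM in this library and to 3.02 to 5.45 CPM in each of the others. Most of the CPM of the low members in ‘Ellvis’ controls thus came from 1 shallow library.

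Heat stress raised 11 of the 31 tested members in ‘Mv 17-09’ and lowered 1, where a call needs an adjusted p (edgeR quasi-likelihood test, Benjamini-Hochberg over 70527 genes) under 0.05 and at least a 2-fold change. Over all genes tested, 4.67% rose and 6.93% fell. The median log2 fold change of the 31 members was 0.69, against 0.00 over all genes, and 27 of the 31 had a positive value. With the 4 IDs left out by rule added, 14 rose and 1 fell. Of the 11, TraesCS1B03G1135500, TraesCS1D03G0933000, TraesCS1A03G0956900 and TraesCS7D03G0009200 passed the filter only through heat-stressed libraries. Too few controls reached the filter's level for these genes, so their being tested depended on high values after heat stress. The summed level of the 107 members was 450, 449 and 496 CPM in the controls and 829, 876 and 757 CPM after heat stress, and these values do not overlap.

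In ‘Ellvis’, heat stress raised 6 of the 31 tested members and lowered none. The 6 include TraesCS1B03G1135500 and TraesCS1D03G0933000, which passed the filter only through heat-stressed libraries. The share over all genes was 1.98% higher and 1.64% lower. At an unadjusted p under 0.05, 2 members were lower, and DESeq2 called none lower and 2 higher. The members' median log2 fold change was 0.48, against 0.00 over all genes, and with the 4 IDs added 9 rose and none fell. Without ‘Ellvis’ control replicate 1, 33 members were tested, 9 rose and 1 fell, and all 6 of the first calls were among the 9. The share over all genes was larger in that fit too, at 4.29% higher and 2.17% lower. The members' median log2 fold change was then 0.62, against 0.03 over all genes. The summed level was 653, 470 and 437 CPM in controls and 608, 568 and 624 CPM after heat stress. The groups overlap only through control replicate 1, the highest of all 6 values.

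**Figure D2:**
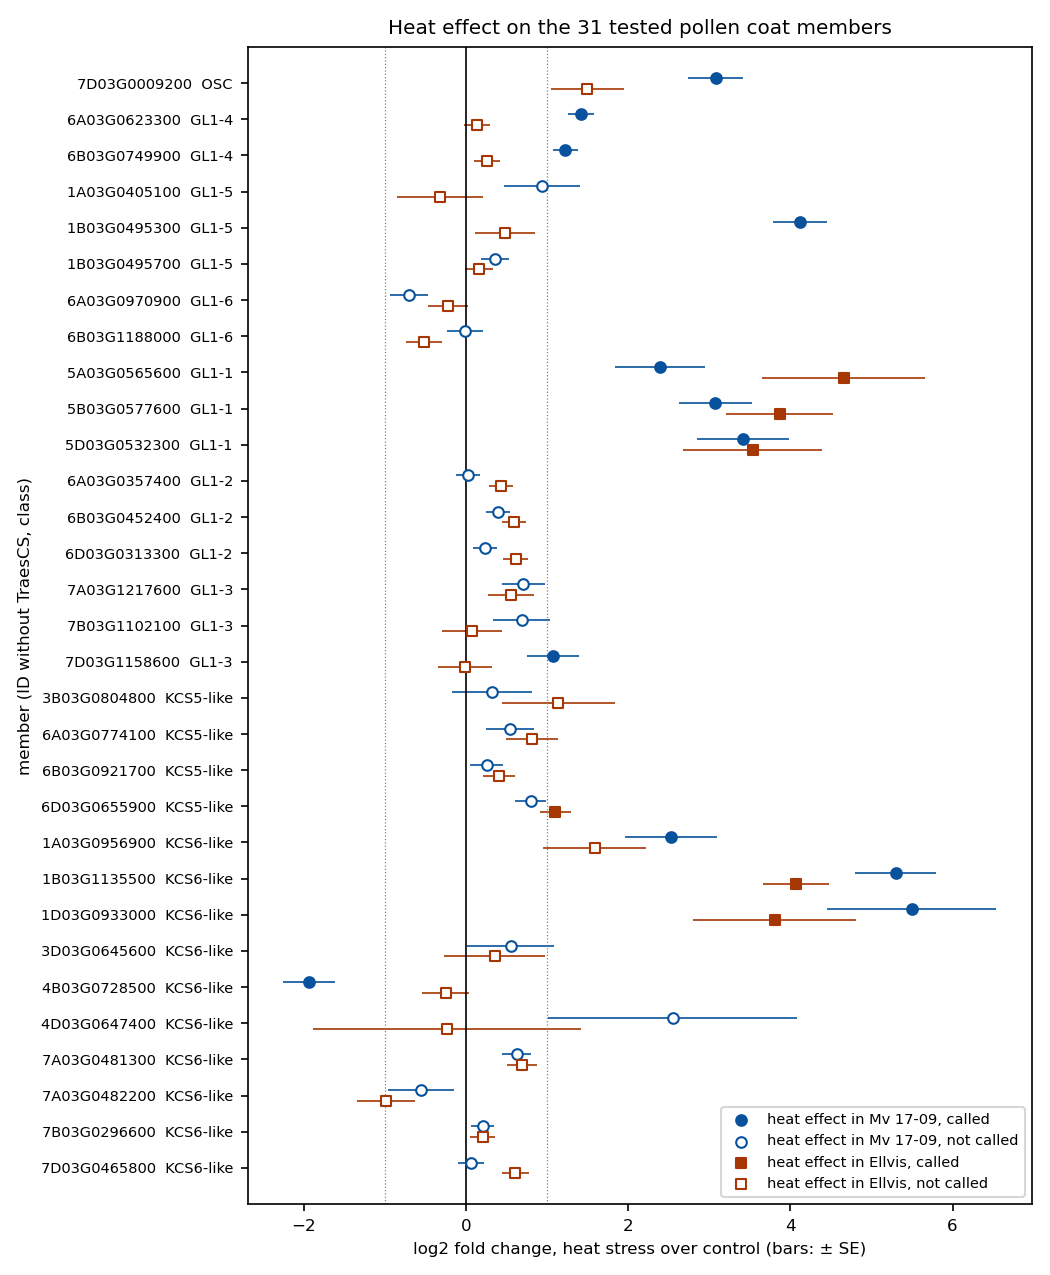
The log2 fold change of heat stress over control is plotted for the 31 tested members, ordered by class, with its standard error, in ‘Mv 17-09’ (blue circles) and ‘Ellvis’ (brown squares). Filled symbols mark called changes and dotted lines a 2-fold change. All GL1-1 genes and 2 of the KCS6-like genes on chromosome group 1 are called higher in both cultivars, while the GL1-4 genes lie above 1 only in ‘Mv 17-09’.

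Among the elongase genes, which supply the chains that the rest of the pathway uses, the largest rises were those of KCS6-like copies on chromosome group 1. TraesCS1B03G1135500 (chromosome 1B, 652485165 to 652493469) measured 0.0671, 0.105 and 0.0651 CPM in ‘Mv 17-09’ controls and 2.19, 4.93 and 3.53 CPM after heat stress. Its ‘Ellvis’ values were 0.565, 0.356 and 0.358 CPM in controls and 6.88, 4.37 and 7.87 CPM after heat stress. Control and heat-stressed libraries did not overlap in either cultivar, and the low values were very low: 4 counts in all 3 ‘Mv 17-09’ controls together. With at most 6 counts in any control, this gene passed the filter only through heat-stressed libraries and would not have been tested without them. Its log2 fold change was 5.30 ± 0.50 (SE, n = 3 per group, adjusted p = 2.14e-06 by edgeR) in ‘Mv 17-09’ and 4.07 ± 0.41 (adjusted p = 2.41e-05 by edgeR) in ‘Ellvis’. The difference between these effects, 1.23, was not called (SE 0.80, adjusted p = 0.44 by edgeR).

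The copy on chromosome 1D, TraesCS1D03G0933000, was all but absent from unheated anthers and likewise passed the filter only through heat-stressed libraries. It had 0, 0 and 0.130 CPM in ‘Mv 17-09’ controls, which is 2 counts, and 2.40, 1.99 and 2.35 CPM after heat stress. The ratio of pooled counts was 55.3, with an exact 95% interval of 14.7 to 467 that covers counting error only. In ‘Ellvis’ it was at 2.26, 0 and 0 CPM in controls, the first value being 4 counts in the shallow library, and at 2.86, 1.06 and 2.31 CPM after heat stress. The ‘Ellvis’ groups overlap through that library. Control replicates 2 and 3 held no count. Against them alone, the ratio of pooled counts had an exact 95% interval starting at 16.6, for counting error only. This copy rose in both cultivars, but the ‘Ellvis’ call (adjusted p = 0.0313 by edgeR) was lost under 10 of 20 alternative settings.

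The 1A copy, TraesCS1A03G0956900, which shares its RefSeq entry with the 1D copy, rose in ‘Mv 17-09’ from 0.738, 0.315 and 0.260 CPM to 1.77, 4.09 and 1.71 CPM. Its log2 fold change was 2.53 ± 0.57 (adjusted p = 0.00467 by edgeR). In ‘Ellvis’ it was at 2.26, 0.533 and 0.143 CPM in controls and 1.23, 1.46 and 1.82 CPM after heat stress, with the shallow library above all the others. The ‘Ellvis’ change did not pass (1.59, adjusted p = 0.16 by edgeR) and did so without that library (2.06, adjusted p = 0.0115 by edgeR).

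A KCS6-like gene on chromosome 4B moved the other way, and it was the only tested member called lower in either cultivar. TraesCS4B03G0728500 (chromosome 4B, 551861863 to 551863754) dropped in ‘Mv 17-09’ from 3.15, 3.30 and 4.10 CPM to 0.521, 1.05 and 1.18 CPM, without overlap. The ‘Ellvis’ libraries gave 3.95, 2.55 and 2.44 CPM in controls and 2.86, 1.74 and 2.15 CPM after heat stress, and these overlap. Its heat effect was -1.93 ± 0.32 (adjusted p = 0.00044 by edgeR) on the log2 scale in ‘Mv 17-09’ and -0.25 ± 0.29 (adjusted p = 0.68 by edgeR) in ‘Ellvis’. The copy on 4D, TraesCS4D03G0647400, had 38 counts in all and did not pass in either cultivar.

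The better counted KCS genes had smaller fold changes. TraesCS7A03G0481300, the KCS gene with the highest mean CPM, stands in a group of 4 neighbouring members on chromosome 7A. It measured 10.6, 13.8 and 16.0 CPM in ‘Mv 17-09’ controls and 20.6, 21.5 and 20.2 CPM after heat stress. The ‘Ellvis’ values were 23.7, 14.4 and 13.4 CPM against 27.5, 23.8 and 24.2 CPM. Heat-stressed libraries were above all controls in each cultivar. The change had an adjusted p under 0.05 in each but stayed below 2-fold, with a log2 fold change of 0.62 ± 0.18 in ‘Mv 17-09’ and 0.69 ± 0.19 in ‘Ellvis’ (adjusted p = 0.022 and 0.0369 by edgeR). Its counterparts on 7B and 7D, TraesCS7B03G0296600 and TraesCS7D03G0465800, were under 2-fold in both cultivars as well.

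KCS5-like genes gave 1 call, in ‘Ellvis’. TraesCS6D03G0655900 (chromosome 6D, 404624419 to 404626201) rose there from 5.65, 4.21 and 3.22 CPM to 8.65, 8.79 and 7.87 CPM. In ‘Mv 17-09’ it was at 2.88, 3.30 and 4.10 CPM in controls and at 5.73, 6.50 and 5.67 CPM after heat stress. Neither cultivar showed overlap. On the log2 scale it changed by 1.10 ± 0.19 (adjusted p = 0.00215 by edgeR) in ‘Ellvis’ and 0.80 ± 0.19 (adjusted p = 0.0067 by edgeR) in ‘Mv 17-09’, below 2-fold in the latter, and the 2 effects differed by -0.30 ± 0.27 (adjusted p = 0.60 by edgeR). The sum over all 43 KCS5-like members was 67.8 CPM in ‘Ellvis’ control replicate 1 and 13.6 and 12.3 CPM in the other controls, against 22.4 to 24.9 CPM after heat stress. The direction of that sum in ‘Ellvis’ therefore depends on 1 library.

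Of the 71 KCS genes below the filter, which were not tested, those with the most counts are given here. TraesCS4A03G1147300 had 44 counts over all libraries, TraesCS6B03G0076600 had 43 and TraesCS4A03G0059100 had 42. TraesCS4A03G0059100 was counted in all ‘Ellvis’ controls (0.565, 0.593 and 1.22 CPM, 28 counts) and in no heat-stressed ‘Ellvis’ library, at least 14.5-fold lower with a floor of 3 counts over the group. In ‘Mv 17-09’ it was counted in only 1 library of each condition (0.536 and 0.642 CPM). TraesCS6B03G0076600 had 27 counts in ‘Mv 17-09’ controls and 1 after heat stress, a ratio of 15.6 with an exact 95% interval of 2.57 to 639 for counting error only. Leaving out ‘Ellvis’ control replicate 1 made the smallest group smaller, so the filter asked for fewer libraries and both genes passed. TraesCS6B03G0076600 entered through ‘Mv 17-09’ control replicates 2 and 3 (14 and 11 counts), the group where it was high. In that fit TraesCS4A03G0059100 was called lower in ‘Ellvis’ and TraesCS6B03G0076600 in ‘Mv 17-09’. These calls rest on the same counts as above and are no added support.

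The CER1 genes, whose Arabidopsis counterpart forms wax alkanes, gave the widest gap between the cultivars. They fall in classes named after rice GL1 genes (aldehyde decarbonylases of the same family). The GL1-4 class took the most counts of all members. TraesCS6B03G0749900 (chromosome 6B, 467257728 to 467264066) had 123, 114 and 119 CPM in ‘Mv 17-09’ controls and 274, 312 and 248 CPM after heat stress. In ‘Ellvis’ this gene had 78.0, 106 and 93.8 CPM in controls and 104.5, 110.5 and 120.6 CPM after heat stress. Heat-stressed ‘Mv 17-09’ anthers stood above every other library. The log2 fold change was 1.23 ± 0.16 (2.34-fold, adjusted p = 4.22e-05 by edgeR) in ‘Mv 17-09’ and 0.26 ± 0.16 (adjusted p = 0.38 by edgeR) in ‘Ellvis’.

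The 6A copy gave similar values. TraesCS6A03G0623300 (chromosome 6A, 428750996 to 428760815) went from 45.7, 46.4 and 46.0 CPM to 124, 139 and 106 CPM in ‘Mv 17-09’. The ‘Ellvis’ libraries were at 37.3, 47.2 and 47.6 CPM in controls and at 51.2, 41.2 and 55.6 CPM after heat stress, and overlap. On the log2 scale the change was 1.42 ± 0.16 (2.67-fold, adjusted p = 1.27e-05 by edgeR) in ‘Mv 17-09’ and 0.14 ± 0.16 (adjusted p = 0.69 by edgeR) in ‘Ellvis’. For these 2 copies the difference between the heat effects was 1.28 ± 0.23 (adjusted p = 0.00283 by edgeR) on 6A and 0.97 ± 0.22 (adjusted p = 0.015 by edgeR) on 6B, where it fell just short of 2-fold. Without ‘Ellvis’ control replicate 1 it was 1.35 and 1.06 and was called for both.

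GL1-5 genes stand next to each other on chromosome 1B and differed from each other in level and response. In rice, GL1-5 (WDA1) is needed for the wax of the anther wall and for pollen development. TraesCS1B03G0495300 (chromosome 1B, 304458210 to 304474380) was low in ‘Mv 17-09’ controls, at 0.402, 0.472 and 0.977 CPM, and reached 10.6, 13.1 and 8.46 CPM after heat stress. In ‘Ellvis’ it stayed between 0.931 and 2.82 CPM in controls and between 1.40 and 2.48 CPM after heat stress. The log2 fold change was 4.12 ± 0.34 (17.3-fold, adjusted p = 4.83e-07 by edgeR) in ‘Mv 17-09’ and 0.48 ± 0.37 (adjusted p = 0.51 by edgeR) in ‘Ellvis’, and the difference of 3.63 ± 0.53 (adjusted p = 0.000587 by edgeR) was the largest called among the members. It held under all 19 alternative settings that could give it.

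Its neighbour TraesCS1B03G0495700, well counted, did not pass in either cultivar. It had 52.2, 45.8 and 55.8 CPM in ‘Mv 17-09’ controls and 62.3, 66.1 and 68.8 CPM after heat stress, which do not overlap but differ by only 0.36 ± 0.17 on the log2 scale (adjusted p = 0.16 by edgeR). Its ‘Ellvis’ libraries ranged from 32.2 to 55.2 CPM in controls and from 51.8 to 56.0 CPM after heat stress. The copy on 1A, TraesCS1A03G0405100, was counted at 0.335 to 1.89 CPM and did not pass. The GL1-6 genes on 6A and 6B had negative log2 fold changes in both cultivars, of -0.70 to -0.01, and neither was called. In both, ‘Ellvis’ control replicate 1 was the highest of the 12 libraries, at 40.1 and 22.0 CPM.

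**Figure D3:**
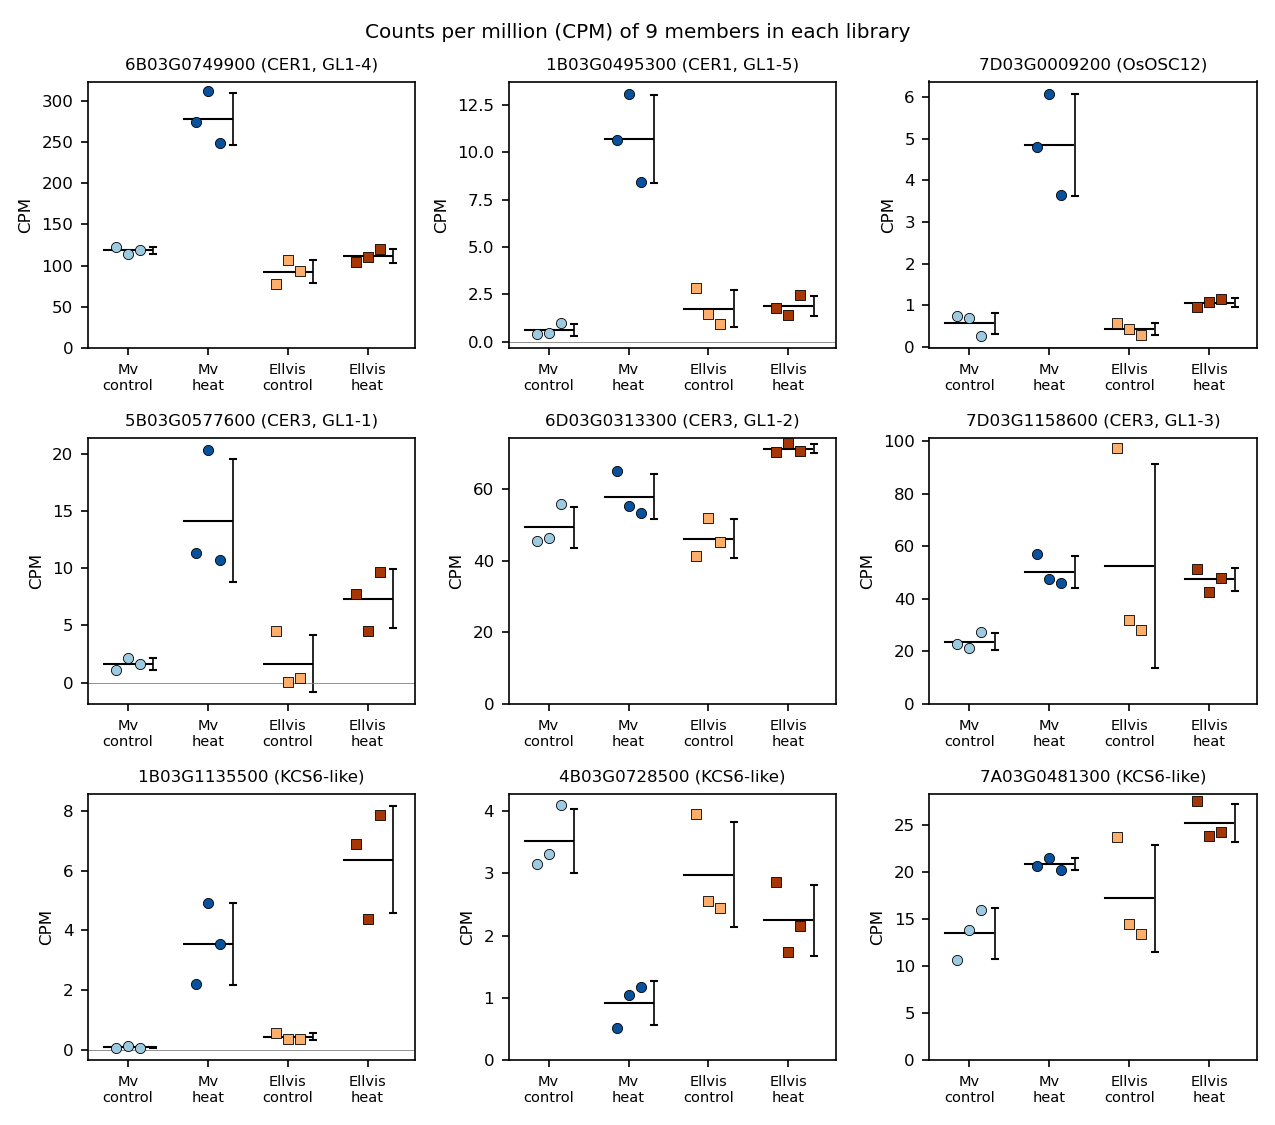
CPM of 9 members in each of the 12 libraries, with the mean (line) and SD (bar) of the 3 libraries in each group. TraesCS6B03G0749900, TraesCS1B03G0495300 and TraesCS7D03G0009200 are highest in the heat-stressed ‘Mv 17-09’ libraries, TraesCS5B03G0577600 and TraesCS1B03G1135500 rise in both cultivars, and ‘Ellvis’ control replicate 1 stands at 97.2 CPM for TraesCS7D03G1158600.

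CER3 genes work with CER1 in Arabidopsis, and their classes split by response. All 3 GL1-1 copies were called higher in both cultivars by edgeR. DESeq2 called none of them in ‘Ellvis’, and in ‘Mv 17-09’ only the copies on 5B and 5D. TraesCS5B03G0577600 (chromosome 5B, 396684327 to 396688365) measured 1.14, 2.15 and 1.63 CPM in ‘Mv 17-09’ controls and 11.4, 20.3 and 10.7 CPM after heat stress. In ‘Ellvis’ it had 4.52, 0.0593 and 0.430 CPM in controls and 7.77, 4.53 and 9.64 CPM after heat stress. The heat-stressed libraries were above the controls in both, although ‘Ellvis’ control replicate 1 (8 counts) almost reached the lowest of them. Log2 fold changes were 3.08 ± 0.45 (adjusted p = 0.000156 by edgeR) in ‘Mv 17-09’ and 3.87 ± 0.66 (adjusted p = 0.00197 by edgeR) in ‘Ellvis’. Without that library the ‘Ellvis’ value was 4.95 ± 0.55 (adjusted p = 1.81e-06 by edgeR). The ‘Ellvis’ call was lost under 3 of 20 alternative settings, over which the log2 fold change ran from 2.47 to 4.95.

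TraesCS5D03G0532300 rose in ‘Mv 17-09’ from 0.469, 0.787 and 0.912 CPM to 6.15, 10.9 and 6.53 CPM (log2 fold change 3.42 ± 0.57, adjusted p = 0.000453 by edgeR). In ‘Ellvis’ its controls were at 3.39, 0 and 0.0716 CPM and its heat-stressed libraries at 3.68, 1.46 and 3.36 CPM. The ‘Ellvis’ groups overlap through control replicate 1, which held 6 of the 7 control counts. The ‘Ellvis’ call (3.54 ± 0.86, adjusted p = 0.0202 by edgeR) was lost under 7 of 20 alternative settings, among them the fits without control replicate 2 (adjusted p = 0.15) or control replicate 3 (adjusted p = 0.14), and held without control replicate 1.

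On 5A, TraesCS5A03G0565600 went from 0.469, 1.68 and 1.11 CPM to 4.59, 8.28 and 4.82 CPM in ‘Mv 17-09’ (log2 fold change 2.39 ± 0.55, adjusted p = 0.00558 by edgeR). That call was lost under 2 of 20 alternative settings. The ‘Ellvis’ values were 1.69, 0 and 0 CPM in controls and 4.36, 1.18 and 2.59 CPM after heat stress, again overlapping through control replicate 1. Control replicates 2 and 3 held no count. Against them, the ratio of pooled counts in heat-stressed ‘Ellvis’ had an exact 95% interval starting at 21.4, for counting error only. Its ‘Ellvis’ call (adjusted p = 0.0102 by edgeR) was also lost without control replicate 2 (adjusted p = 0.092) or control replicate 3 (adjusted p = 0.078). Summed over the class, GL1-1 stood at 2.08, 4.62 and 3.65 CPM in ‘Mv 17-09’ controls and at 22.1, 39.5 and 22.0 CPM after heat stress. In ‘Ellvis’ the sum was 9.60, 0.0593 and 0.501 CPM in controls and 15.8, 7.16 and 15.6 CPM after heat stress.

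The GL1-2 copies took more counts and had fold changes below 2. TraesCS6D03G0313300, the CER3 gene with the highest mean CPM (chromosome 6D, 130221985 to 130227232), had 45.6, 46.4 and 55.9 CPM in ‘Mv 17-09’ controls and 65.1, 55.2 and 53.4 CPM after heat stress. Its ‘Ellvis’ values were 41.2, 51.9 and 45.3 CPM in controls and 70.4, 72.8 and 70.8 CPM after heat stress. Groups overlapped in ‘Mv 17-09’ and not in ‘Ellvis’. The log2 fold change of 0.61 ± 0.15 in ‘Ellvis’ had an adjusted p of 0.0204 (edgeR) but was below 2-fold, and in ‘Mv 17-09’ it was 0.23 ± 0.15 (adjusted p = 0.30 by edgeR). TraesCS6A03G0357400 had 29.2, 26.3 and 35.5 CPM in ‘Mv 17-09’ controls, 33.9, 27.3 and 31.5 CPM after heat stress, and 50.5 to 57.0 CPM in heat-stressed ‘Ellvis’ against 36.7 to 41.4 CPM in its controls. No GL1-2 copy was called in either cultivar or for the difference, where all 3 values lay between -0.41 and -0.19.

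Of the GL1-3 copies, 1 was called, in ‘Mv 17-09’. TraesCS7D03G1158600 (chromosome 7D, 600877134 to 600881288) rose there from 22.7, 21.3 and 27.3 CPM to 57.1, 47.6 and 45.9 CPM (log2 fold change 1.08 ± 0.32, adjusted p = 0.0255 by edgeR). Without overlap between groups, the call was still lost when any ‘Mv 17-09’ control, or heat-stressed replicate 1 or 2, was left out (adjusted p of 0.0507 to 0.103). In ‘Ellvis’ it was at 97.2, 32.1 and 28.3 CPM in controls and at 51.5, 42.8 and 47.8 CPM after heat stress. Control replicate 1 was above and the other controls below every heat-stressed library. The ‘Ellvis’ log2 fold change was -0.01 ± 0.33 (adjusted p = 0.996 by edgeR) with that library and 0.64 ± 0.12 (adjusted p = 0.000686 by edgeR) without it.

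**Figure D4:**
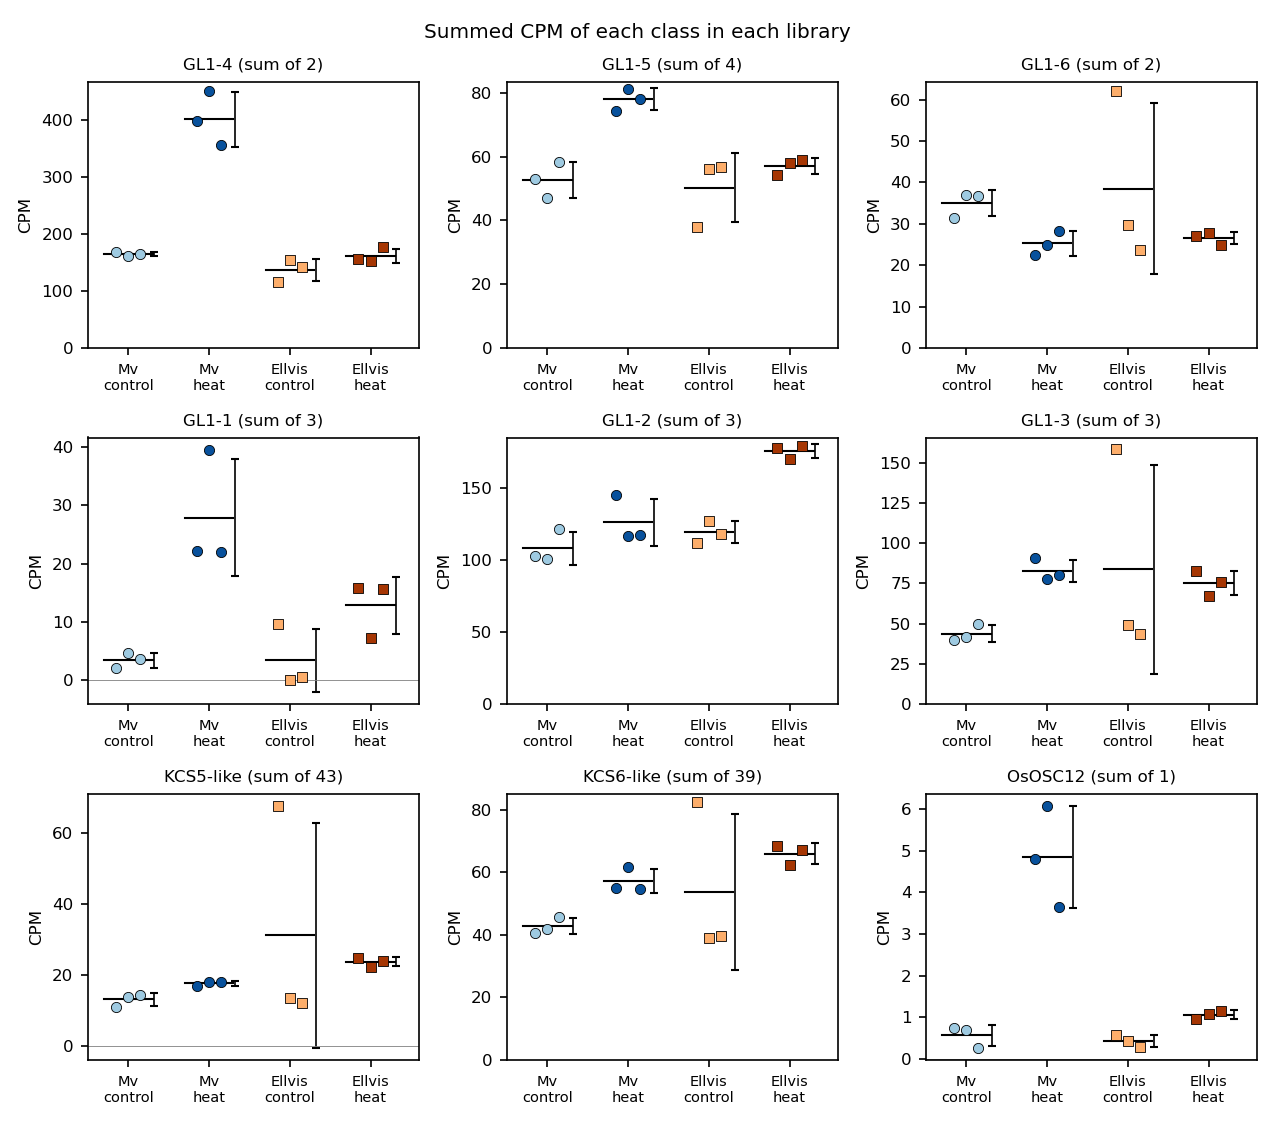
Summed CPM of all members of 9 classes in each of the 12 libraries, with the mean (line) and SD (bar) of the 3 libraries in each group. The GL1-4 sum of 355 to 450 CPM in heat-stressed ‘Mv 17-09’ is above every other library, whereas for GL1-6, GL1-3, KCS5-like and KCS6-like the highest value is that of ‘Ellvis’ control replicate 1.

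The remaining OsOSC12 gene, TraesCS7D03G0009200 (chromosome 7D, 2527466 to 2533032), rose in ‘Mv 17-09’ from 0.738, 0.682 and 0.260 CPM to 4.79, 6.08 and 3.64 CPM. In ‘Ellvis’ it was at 0.565, 0.415 and 0.287 CPM in controls and at 0.954, 1.06 and 1.16 CPM after heat stress. Heat-stressed libraries were above all controls in each cultivar. The log2 fold change was 3.08 ± 0.34 (8.45-fold, adjusted p = 1.04e-05 by edgeR) in ‘Mv 17-09’. In ‘Ellvis’ it was 1.50 ± 0.46 and did not pass (adjusted p = 0.06 by edgeR), while without control replicate 1 it did (1.55, adjusted p = 0.0246 by edgeR). The difference between the effects, 1.58 ± 0.62, was not called (adjusted p = 0.16 by edgeR).

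Whether the cultivars responded differently was tested on the difference of the log2 fold changes (‘Mv 17-09’ minus ‘Ellvis’). Of the 31 members, 2 were called higher and 1 lower, where 1.46% and 3.75% of all genes were. The 2 higher were the CER1 genes TraesCS1B03G0495300 and TraesCS6A03G0623300, and the lower was the KCS6-like gene TraesCS4B03G0728500 (-1.68 ± 0.43, adjusted p = 0.030 by edgeR). That last call did not hold with ‘Ellvis’ control replicate 2 or 3, ‘Ellvis’ heat stress replicate 1, ‘Mv 17-09’ control replicate 2 or 3, or ‘Mv 17-09’ heat stress replicate 1 or 2 left out (adjusted p of 0.0556 to 0.0781). The median difference over the members was 0.16, with 16 values positive and 15 negative, against -0.01 over all genes. By family, 6 of 7 CER1 genes had a positive difference and 6 of 9 CER3 genes a negative one. Without ‘Ellvis’ control replicate 1 the median turned negative, at -0.18 over 33 members (14 positive and 19 negative, -0.03 over all genes). That fit called 4 members higher and 2 lower, where 2.48% and 7.13% of all genes were. The calls it added were TraesCS6B03G0749900 and TraesCS4A03G0059100 (adjusted p = 0.0495 by edgeR) higher and TraesCS5A03G0565600 (adjusted p = 0.0355 by edgeR) lower. TraesCS4A03G0059100 had no count in heat-stressed ‘Ellvis’ and TraesCS5A03G0565600 none in the remaining ‘Ellvis’ controls, so their fitted differences are not given. In that fit 6 of 7 CER1 genes had a positive difference and 8 of 9 CER3 genes a negative one.

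The sporopollenin genes give a measure of what lipid genes of the tapetum did in these libraries. They make the outer pollen wall and not the coat, and they mark the tapetum, to which the members are not particular. Of 34 listed, 32 were tested, and in ‘Mv 17-09’ 29 were called lower and none higher, with none higher by DESeq2 either. Another 2 rose at an adjusted p under 0.05 (edgeR) but stayed below 2-fold. The median log2 fold change was -2.06 against 0.69 for the pollen coat members. In ‘Ellvis’ none was called in either direction, and none by DESeq2. At an unadjusted p under 0.05 (edgeR) 2 were higher and 7 lower, and 1 of the higher passed an adjusted p under 0.05 but not 2-fold. The median was -0.25 against 0.48. That median rested on control replicate 1: without it the sporopollenin median in ‘Ellvis’ was 0.02, with 17 values positive and 15 negative and none called by edgeR (6 higher and 4 lower at an unadjusted p under 0.05), against 0.62 for the members. Their summed level fell in ‘Mv 17-09’ from 21505, 22754 and 24271 CPM to 6867, 5267 and 6121 CPM, while the pollen coat members' sum rose. That rise was concentrated: the mean sum of the members went from 464.9 to 820.7 CPM, and that of the 2 GL1-4 copies alone from 164.8 to 400.9 CPM. In heat-stressed ‘Ellvis’ the sporopollenin sum was 19536, 19037 and 16727 CPM, all far below control replicate 1 and near the other controls. The meiocyte genes summed to 94.7 to 111.2 CPM in ‘Mv 17-09’ controls and to 96.0 to 105 CPM after heat stress. Single genes of that list moved in both directions: of 12 tested, 1 was called higher and 1 lower in ‘Mv 17-09’. Their log2 fold changes there ran from -1.56 to 1.90. In ‘Ellvis’ the meiocyte genes summed to 67.2, 140.0 and 141.8 CPM in controls and to 105.2 to 106.4 CPM after heat stress. The heat-stressed libraries were thus above control replicate 1 and below the other controls. Without that replicate the median log2 fold change of the 12 in ‘Ellvis’ was -0.26, with 3 values positive and 9 negative, and 1 was called lower by edgeR. What part the cell make-up of the anthers had in the members' changes was not tested.

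Between unstressed anthers, ‘Mv 17-09’ and ‘Ellvis’ differed in few members. Higher in ‘Mv 17-09’ were 2 of 31 and lower 1, against 5.83% and 7.02% of all genes, and scaling by library totals alone gave 1 and 2. TraesCS5A03G0565600 was called higher (log2 fold change 3.40 ± 1.14, adjusted p = 0.0465 by edgeR), with the control values given above. Against ‘Ellvis’ control replicates 2 and 3, the ratio of pooled counts had an exact 95% interval starting at 9.18, for counting error only. The call was lost under 13 of 20 alternative settings. TraesCS3B03G0804800, a KCS5-like gene, had 0.536, 0.787 and 1.11 CPM in ‘Mv 17-09’ controls and 0.565, 0.178 and 0.143 CPM in those of ‘Ellvis’, which overlap (2.04 ± 0.66, adjusted p = 0.0393 by edgeR, lost under 10 of 19 alternative settings). TraesCS7D03G1158600 was lower in ‘Mv 17-09’ by -1.01 ± 0.33 (adjusted p = 0.0444 by edgeR), a value that fell to -0.35 ± 0.12 (adjusted p = 0.0388 by edgeR), below 2-fold, without ‘Ellvis’ control replicate 1. None of these 3 calls held when ‘Mv 17-09’ control replicate 2 or 3 was left out. Without ‘Ellvis’ control replicate 1, 4 members were higher, adding the GL1-1 copies on 5B (2.83) and 5D (4.16), and 1 other, the KCS6-like gene TraesCS7A03G0482200, was lower. Of all genes, 7.79% were higher and 7.23% lower in that fit.

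After heat stress, 5 of the 31 members were higher and 1 was lower in ‘Mv 17-09’ than in ‘Ellvis’, where 8.66% and 13.2% of all genes were. The 5 were TraesCS1B03G0495300 (log2 fold change 2.50 ± 0.28, adjusted p = 6.09e-06 by edgeR), both GL1-4 copies (1.31 and 1.32), TraesCS7D03G0009200 (2.18 ± 0.31, adjusted p = 6.23e-05 by edgeR) and TraesCS5D03G0532300 (1.48 ± 0.48, adjusted p = 0.0244 by edgeR). For each of them, every heat-stressed ‘Mv 17-09’ library was above every heat-stressed ‘Ellvis’ library. The lower one was TraesCS4B03G0728500 (-1.28 ± 0.33, adjusted p = 0.00733 by edgeR). With the 4 IDs added, 8 were higher and 1 was lower. In the fit without ‘Ellvis’ control replicate 1, 8 of 33 members were higher and 1 was lower. The call of TraesCS5D03G0532300 was lost without ‘Ellvis’ heat stress replicate 2 (adjusted p = 0.11) or ‘Mv 17-09’ heat stress replicate 2 (adjusted p = 0.15), and that of TraesCS4B03G0728500 without ‘Mv 17-09’ heat stress replicate 1, where the value of -0.97 was under 2-fold.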

How the data were processed

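Anther RNA was depleted of ribosomal RNA and sequenced from strand-specific libraries. After a quality check with FastQC v0.11.8, the reads were trimmed and aligned in CLC Genomics Workbench (assembly IWGSC RefSeq v2.1), and the authors deposited raw counts per gene for each of 12 libraries. How reads that map to several places were counted is not given in the sources used here. No 2 libraries held identical counts. Labels do not say whether replicates come from separate plantings, whereas the study's methods state independent biological replicates.

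Members, families and lists were chosen with earlier results of these data known. Genes were kept by filterByExpr (minimum count 10, minimum total 15), normalized by TMM and tested with edgeR 4.0.16 (quasi-likelihood F-test, all 4 groups in 1 fit, no block) in R 4.3.3, with p-values adjusted over 70527 genes. Standard errors are the log2 fold change divided by the square root of F, an approximation. CPM use TMM-corrected totals. The test was tried on simulated counts with known changes. Alternatives used limma 3.58.1 and DESeq2 1.42.0. Named genes are, by rule, the highest by mean CPM (overall and per family), the called members with the smallest p per comparison and the 3 untested members with most counts. Others were named, after their values were seen, to account for their class. Positions were taken from the RefSeq entry paired with an ID in the study's table, on the same assembly. Marker lists for epidermis and green tissue were not used here, as gene descriptions were not at hand, and no sequences were used here.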

Additional observations from a re-analysis of the deposited data

Results flagged for a closer look

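In 3 members the heat effects of the cultivars differed by the test of the difference itself (‘Mv 17-09’ minus ‘Ellvis’, edgeR, adjusted over all genes). TraesCS1B03G0495300 (CER1, GL1-5) differed by 3.63, from 4.12 in ‘Mv 17-09’ and 0.48 in ‘Ellvis’. For TraesCS6A03G0623300 (CER1, GL1-4) the difference was 1.28, from 1.42 and 0.14. TraesCS4B03G0728500 (KCS6-like) differed by -1.68, from -1.93 and -0.25, and this call depended on single libraries. Causes were not tested. Groups of 3 libraries are too small for a test of single outlying values.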

How the results depend on the processing

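Counts of called members were recomputed under each alternative. A strict setting took over the study's threshold, an adjusted p of 1e-06 in both a likelihood ratio and a Wald test, but ran in R. It did not repeat the study's own tests, and its counts over all genes differed from those the study reports. Over all genes, the strict setting called 714 higher and 1574 lower in ‘Mv 17-09’, and 202 higher and 288 lower in ‘Ellvis’. Among the members it gave 5 higher and 0 lower in ‘Mv 17-09’ and 1 higher in ‘Ellvis’. For the difference it gave 1 higher and 0 lower, between controls 0 and 0, and after heat stress 0 lower. Without the low-count filter 2 fell in ‘Mv 17-09’, 1 fell in ‘Ellvis’ and 2 were lower after heat stress. DESeq2 gave 2 higher in ‘Ellvis’ and 0 higher between controls. Fitted alone, the compared groups gave 2 higher in ‘Ellvis’ and 0 higher between controls, and the difference between heat effects could not be fitted that way. limma voom gave 4 higher between controls and 8 higher after heat stress. Library totals alone gave 1 higher and 2 lower between controls, and shifted the median of all genes by heat stress from 0.00 to 0.10 in ‘Mv 17-09’ and to 0.11 in ‘Ellvis’. Without a fold threshold 2 fell in ‘Mv 17-09’, 10 rose in ‘Ellvis’ and 6 were lower after heat stress. With the 4 IDs left out by rule added, 8 were higher after heat stress.

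Leaving out 1 library at a time gave 10 to 11 higher and 1 to 2 lower in ‘Mv 17-09’. In ‘Ellvis’ it gave 2 to 9 higher (9 without control replicate 1, 3 without control replicate 2, 2 without control replicate 3) and 0 to 1 lower. For the difference it gave 2 to 4 higher and 0 to 2 lower, between controls 0 to 4 and 0 to 1, and after heat stress 4 to 8 and 1 to 2. Among named genes, 11 of 29 calls held under every alternative, 15 of 29 under every one but the strict setting, and no direction reversed.

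Same-numbered libraries did not all deviate together (correlations of 0.0009 to 0.0324 in ‘Mv 17-09’ and 0.0797 to 0.1794 in ‘Ellvis’), so the numbers were not taken as pairs, although each ‘Ellvis’ control correlated best with the heat-stressed library of its own number. With the replicate block, 11 members rose in ‘Mv 17-09’ and 5 in ‘Ellvis’, 0 were lower for the difference, and 0 were higher and 0 lower between controls. Depth limits the 76 members below the filter, whose highest mean level was 0.475 CPM.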
